A study of Homo sapiens with 4 samples.

Results

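Voltage-gated and potassium ion channels were examined in GIST-T1, a human line established from a tumor of the gastrointestinal stroma (GIST), after introduction of a miR-335 mimic. The members were the genes whose array name begins with KCN or CACN or reads SCN, a number and A or B; antisense names and the noncoding KCNQ1OT1 were left out. These were 137 genes with 192 probes, of 36337 gene names and 50599 probes on the array. The names of 136 members are current RefSeq symbols and 1 is an older synonym.

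Both groups were the same cell line, kept in DMEM with fetal bovine serum and electroporated with 100 pmol of RNA. The mimic group (2 arrays) received a mirVana miR-335 mimic, which is a double-stranded RNA made to work like the natural microRNA, and the control group (2 arrays) received mirVana Negative Control #1. RNA was taken 48 h later, and 100 ng was labeled with 1 dye and hybridized to an Agilent array of 60-base probes. A second line in the description of both mimic samples names miR-34a, while the title, the characteristics and the series text name miR-335, so the samples are called by the name that most of the labels give. The labels do not say whether the 2 arrays of a group came from separate transfections, and p-values measure only the spread between arrays, which may be technical. All 4 arrays lay on 1 slide, with the controls at positions 1 and 2 and the mimic arrays at positions 3 and 4, so that position and group cannot be told apart.

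Voltage-gated channels open a pore for potassium, calcium or sodium when the membrane potential changes. Potassium channels also include inward rectifiers, two-pore channels that carry leak current, and channels opened by intracellular calcium or sodium, and many pores work with auxiliary subunits that set their gating or delivery to the membrane. GIST is related to the interstitial cells of Cajal, the pacemaker cells of the gut wall, which use calcium and potassium channels in generating slow waves.

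A microRNA binds mRNA mainly through its seed, bases 2 to 8, shown here in capitals because they define the site searched for in the probes. The labels do not name the arm of the mimic; the 5p arm is given, from RefSeq (chr7:130496126-130496148, GRCh38.p14, plus strand).
hsa-miR-335-5p: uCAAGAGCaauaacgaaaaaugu
The complement of these 7 bases, GCTCTTG on the strand of the transcript, was present in 1 of the 192 channel probes and in 0.437% of all probes. This probe reports KCNJ15, the inward rectifier Kir4.2, and the window around the match lies at chr21:39673384-39673412 (hg19, plus strand), with the match in capitals.
KCNJ15 window: caagagcaaaataaaGCTCTTGagagtaa
The normalized value of this KCNJ15 probe was -1.36 and -1.29 on the mimic arrays and -1.38 and -1.33 on the control arrays, a change of 0.03 ± 0.05 (limma standard error) on the log2 scale, which turned to -0.16 with scaling to the spike-in controls. Values of the groups overlapped. The shorter match CTCTTG, which this probe also contains as part of the longer one, was found in 4 channel probes (2.08%) and in 1.92% of all probes. Only the 60 bases of each probe were searched, on the transcript strand, and a match is a description of letters, not a site of binding.

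Detection was examined first. A probe was taken as detected on an array when the scanner software called at least 0.5 of its usable spots well above background. By this criterion, 51 channel probes (26.6%) were detected on mimic array 1 and 47 (24.5%) on mimic array 2. On control arrays 1 and 2 the numbers were 50 (26.0%) and 56 (29.2%). Over all probes, the share ranged from 40.3% to 41.9% among the arrays. On all 4 arrays, 45 channel probes (23.4%) were detected, against 38.2% of all probes. No signal well above background was seen on any array for 128 of the probes, and 83 of the 137 genes had no probe above background anywhere. A probe was tested when it was detected on both arrays of at least 1 group. This left 48 probes of 39 genes, 25% of the channel probes against 40.2% of all probes, and the remaining 98 genes are described by detection only.

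All 4 beta subunits of the BK channel (KCNMB1 to KCNMB4), the large-conductance potassium channel opened by calcium and voltage, had tested probes, whereas none of the 4 probes for its pore gene KCNMA1 was well above background on any array. Among the genes for pores of voltage-gated potassium (Kv) channels, 9 of 30 were tested and 20 were detected on no array. Among the tested ones were KCNA6, KCNC1, KCND2, KCND3, KCNH2, KCNH3 and KCNQ3. Of the 10 silent Kv subunits, which form channels only together with other Kv pores, KCNG1 was tested and the other 9 were detected on no array. Of the 12 auxiliary Kv genes, KCNAB3, KCNE4 and KCNIP3 were tested. Among inward rectifiers, 3 of 16 were tested (KCNJ2, KCNJ8 and KCNJ15), and among two-pore channels 4 of 15 (KCNK1, KCNK5, KCNK12 and KCNK15). The calcium channel genes tested were CACNA1C, CACNA1G and CACNA1H of 10 pores, CACNA2D2 of 4 alpha2delta subunits, CACNB2 and CACNB3 of 4 beta subunits, and CACNG6 and CACNG7 of 8 gamma subunits.

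**Figure D1:**
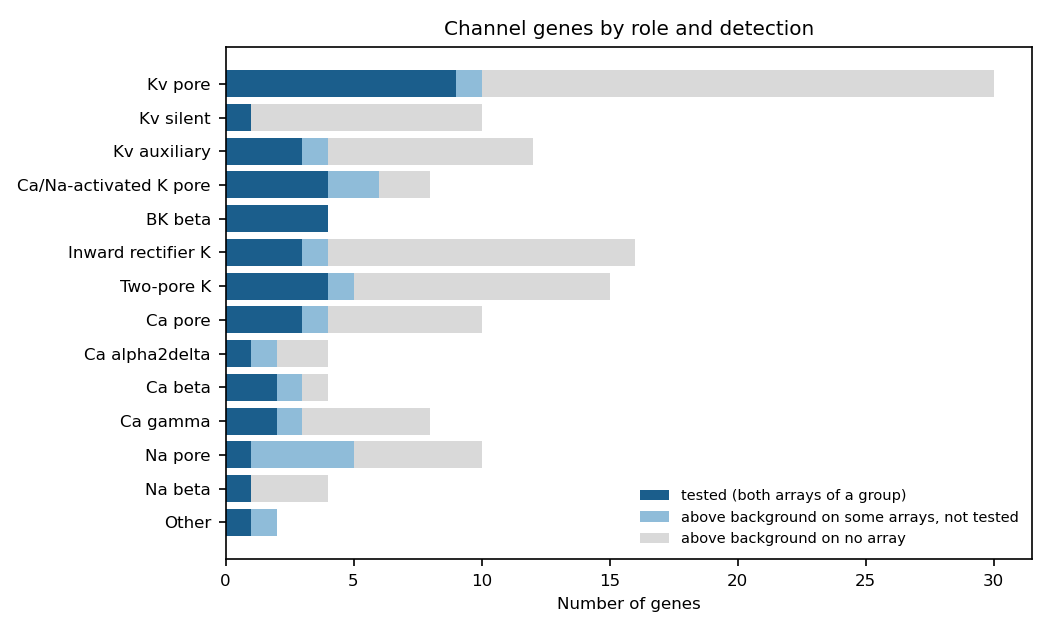
Number of channel genes (x axis) in each role (y axis), split by whether a probe was tested, was above background on some arrays only, or was above background on no array. In the Kv pore role, 9 of 30 genes were tested and 20 were above background on no array; in the BK beta role, all 4 were tested.

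Voltage-gated sodium channels, which drive the upstroke of the action potential, were mostly at background. Of the 14 sodium channel genes, 2 were tested: SCN7A, which codes for a sodium sensor rather than a voltage-gated pore, and SCN4B, a beta subunit. A further 4 genes were detected on a single control array and on no mimic array. These were SCN9A and SCN10A on control array 1, and SCN3A and SCN4A on control array 2. The other 8 genes, among them SCN1A, SCN2A, SCN8A, SCN11A, SCN2B and SCN3B, were detected on no array. No comparison between the groups was made for the 12 untested genes.

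Some channel probes stood out on 1 array. Under the first definition (detected on exactly 1 array, and at least 2 log2 units above the other 3), 6 of the 192 channel probes (3.13%) qualified, against 1.79% of all probes. The arrays were mimic 1 for KCNN1 and KCNQ1, mimic 2 for KCNK17, control 1 for SCN9A and SCN10A, and control 2 for KCNJ4. None of these 6 was tested. KCNT1 was not among them because its probe was also detected on the other 3 arrays; a wider definition, chosen after seeing the data, took it in and gave 7 channel probes (3.65%) and 2.13% of all probes. Among tested probes, 1 of 48 channel probes met the wider definition, as did 24 of 20328 tested probes, 12 of them brightest on mimic array 1.

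The KCNT1 probe is shown because a single spot of it set the largest difference among the channel probes. KCNT1 codes for a potassium channel opened by intracellular sodium. The probe lies at chr9:138687062-138687121 (hg19, plus strand).
KCNT1 probe: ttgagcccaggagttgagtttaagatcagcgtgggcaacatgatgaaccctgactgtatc
Its processed signal (scanner intensity after background subtraction) was 276860 on mimic array 1, 99.6 on mimic array 2, and 64.5 and 61.4 on the control arrays. In normalized log2 values these were 10.51, -0.88, -1.47 and -1.57, so the difference lay almost wholly in mimic array 1. The change was 6.33 ± 4.23 (adjusted p = 0.417, limma). Without mimic array 1 the change was 0.64 (adjusted p = 0.189, limma), and without mimic array 2 it was 12.03 (adjusted p = 0.0208, limma), which would have been called. Only 1 spot of a probe on mimic array 1 was brighter. The local background of the spot was 231.5 on this array and 27 to 30 on the others. Around it, the median local background of the 24 neighboring spots was 121 on mimic array 1 and 27 to 29 on the other arrays. The brightest of these neighbors reached a processed signal of 271000 on mimic array 1 and at most 1415 elsewhere. Within 8 rows and 6 columns of the spot lay 7 of the 12 tested probes that stood out on mimic array 1, KCNT1 included. No other channel probe lay in that window, and the highest local background of any other tested channel probe on any array was 32. The second KCNT1 probe, 2069 bases upstream on the same strand, was not detected on any array.

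**Figure D2:**
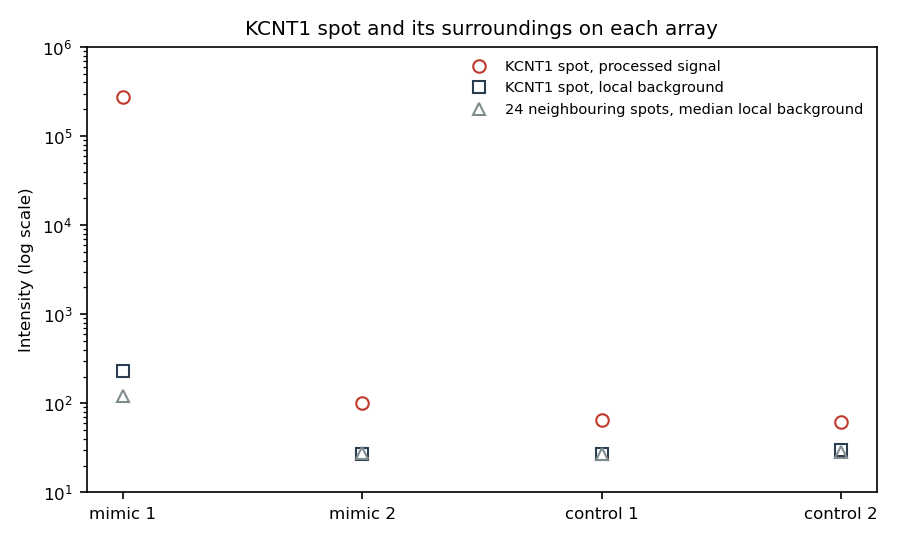
Intensity (log scale, y axis) of the KCNT1 spot, its local background, and the median local background of the 24 spots around it, on each array (x axis). On mimic 1 the spot stands at 276860 and its background at 231.5, whereas the spot lies between 61.4 and 99.6 on the other arrays.

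The mimic and control groups were then compared over the tested probes. Normalized values are log2 signals relative to the 75th percentile of the array, and a change is the mimic mean minus the control mean on this log2 scale. None of the 48 channel probes passed the test (limma, adjusted p threshold 0.05 over all 20328 tested probes), where 2.62% of all tested probes passed, 1.15% lower and 1.47% higher in mimic cells. At an unadjusted limma p under 0.05 there were 17 channel probes. Of these, 11 were lower, where 13.7% of all tested probes were, and 6 were higher, where 11.7% were. The t-test named in the study's methods for other assays gave 0 channel probes after Benjamini-Hochberg adjustment, where it gave 0 of all tested probes. Before adjustment it gave 12 channel probes, and the share of all tested probes is not given here. With 2 arrays against 2, the exact permutation test of a single probe cannot give a two-sided p below 0.333.

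Changes were small. The median change was -0.03 over the channel probes and -0.01 over all tested probes, 16 of the 48 were within 0.1 of 0, and the median SD between arrays of a group was 0.07. CACNG7 was lower by over 1.5-fold (1 of 48; 1.47% of all tested probes), and the KCNT1 probe was higher by over 1.5-fold (1 of 48; 2.43% of all tested probes). The groups did not overlap for 19 probes that were lower in mimic cells (32.5% of all tested probes) and 12 that were higher (27.1%), and they overlapped for 17. By sign alone, 26 channel probes (54.2%) and 53.8% of all tested probes were lower, and with scaling to the spike-in controls 12 of the 22 higher channel probes became lower while the median over all probes moved to -0.20. In RNA from whole cultures, fewer cells that carry an mRNA and less of it per cell cannot be told apart.

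**Figure D3:**
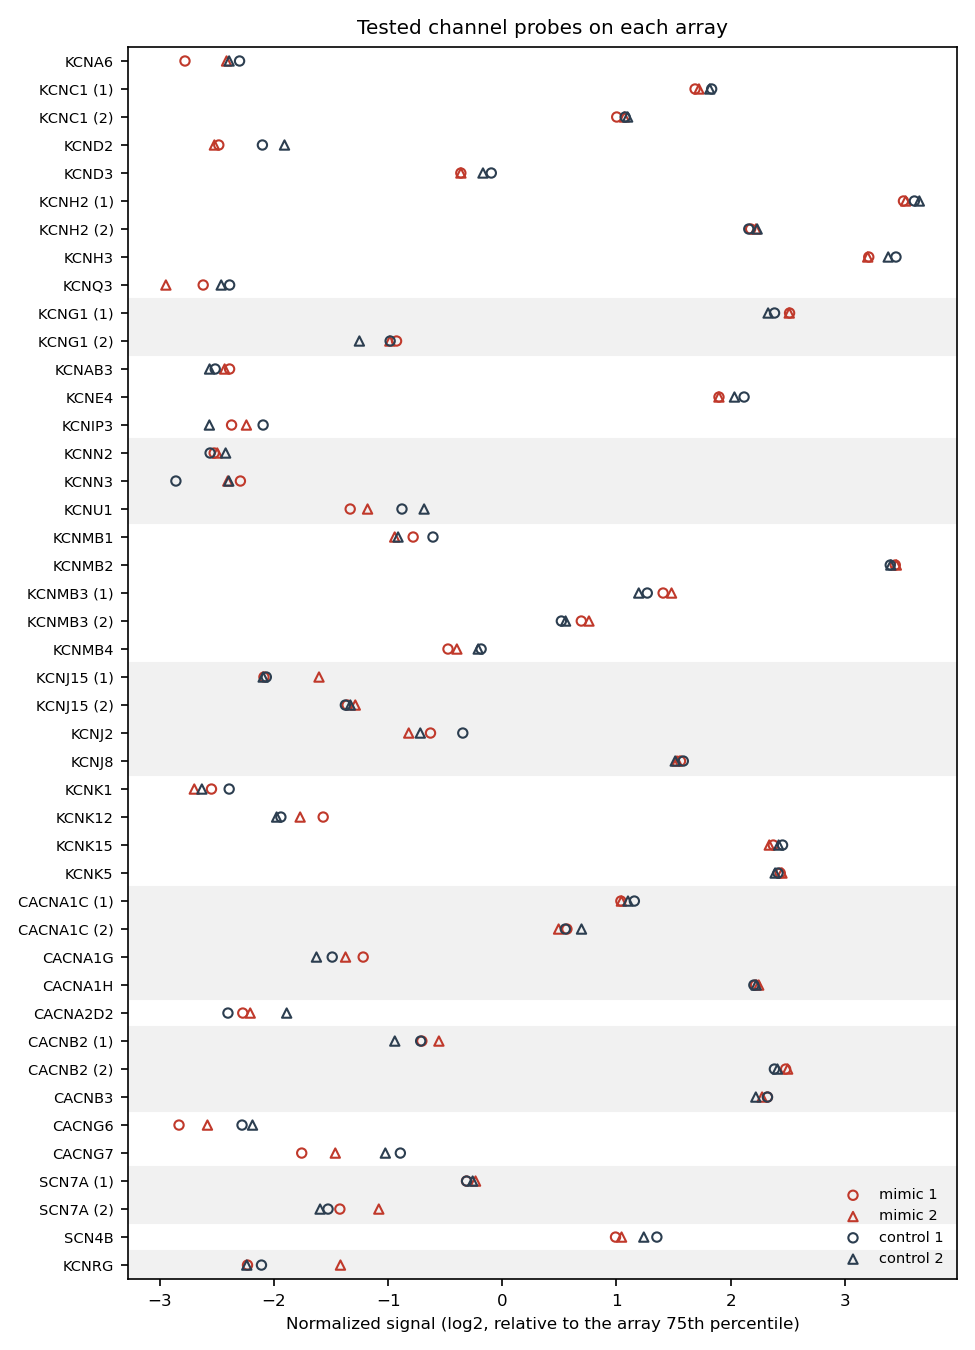
Normalized signal (x axis, log2 relative to the 75th percentile of the array) of each tested channel probe (y axis) on the 4 arrays, with shading that alternates by role. Genes with a pair of tested probes are numbered in the order of their probe names, and the KCNT1 probe and 3 Kv pore probes are not shown. Mimic arrays (red) lie left of control arrays (dark) for 8 of the 9 Kv pore probes shown.

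Pores of voltage-gated potassium channels, which repolarize the membrane, had lower values in mimic cells for 11 of 12 tested probes, and for each of the 11 the groups did not overlap (32.5% of all tested probes were lower without overlap). The other one, the second KCNH2 probe, had a change of 0.003 and was lower by 0.18 with scaling to the spike-in controls. The median change was -0.24. None passed the test, and 5 were lower at an unadjusted limma p under 0.05 (13.7% of all tested probes). KCND2 and KCNQ3, among the 11, were not detected on mimic array 2 and so were tested through the control arrays alone. Such a selection favors lower values in mimic cells. No test of the list itself was made. When 1 array at a time was left out, the 11 probes stayed lower, which follows from the lack of overlap and adds nothing to it.

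KCNC1 (Kv3.1, a fast channel of the Kv3 family) had changes of -0.12 ± 0.04 and -0.05 ± 0.04 for its 2 probes. Their adjusted p were 0.178 and 0.520 (limma), and the groups did not overlap for either.

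KCND2 and KCND3 (Kv4.2 and Kv4.3) carry the transient A-type potassium current. KCND2 had values of -2.48 and -2.52 in mimic cells and -2.10 and -1.91 in controls, with no overlap. It was detected on mimic array 1 and both control arrays but not on mimic array 2, so it was tested through the control arrays alone. Its change was -0.50 ± 0.08 (adjusted p = 0.0802, limma; chr7:120390151-120390210, hg19, plus strand), and -0.10 with normexp background correction (adjusted p = 0.303, limma). KCND3 had values of -0.36 and -0.36 in mimic cells and -0.10 and -0.17 in controls, a change of -0.23 ± 0.04 (adjusted p = 0.0991, limma). KCNIP3, an interacting protein of the Kv4 pores, overlapped between the groups, with a change of 0.02 ± 0.18 that was lower in mimic cells with spike-in or quantile scaling.

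The KCNH genes code for ether-a-go-go type channels, among them KCNH2 (hERG), which repolarizes heart muscle. The KCNH2 probe at chr7:150642092-150642151 (hg19, minus strand) had values of 3.52 and 3.53 in mimic cells and 3.61 and 3.65 in controls, a change of -0.11 ± 0.04 (adjusted p = 0.214, limma). The second KCNH2 probe, at chr7:150646984-150647043, had values of 2.18 and 2.22 in mimic cells and 2.16 and 2.23 in controls. KCNH2 was the only one of the 9 genes with a pair of tested probes whose probes had opposite signs in this scaling. KCNH3 (Kv12.2) had values of 3.21 and 3.20 in mimic cells and 3.45 and 3.38 in controls. Its groups did not overlap, and the change was -0.21 ± 0.04 (adjusted p = 0.108, limma; chr12:49952000-49952059, hg19, plus strand).

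KCNQ3 codes for a subunit of the channel that carries the M-current of neurons. Its change was -0.36 ± 0.13 (adjusted p = 0.209, limma). KCNQ3 was not detected on mimic array 2, so it was tested through the control arrays alone. Its up to 10 spots per array varied among themselves with an SD of 0.21 to 0.46. KCNQ3 had a change of -0.05 with normexp background correction. KCNA6 (Kv1.6) had a change of -0.25 ± 0.14, which was -0.07 without mimic array 1, -0.43 without mimic array 2 and -0.06 with normexp correction.

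Silent and auxiliary Kv subunits did not share a direction. KCNG1 (Kv6.1) had values of 2.52 and 2.51 in mimic cells and 2.39 and 2.33 in controls at chr20:49620263-49620322 (hg19, minus strand). The groups did not overlap, and the change was 0.16 ± 0.04 (adjusted p = 0.140, limma), but -0.03 with scaling to the spike-in controls. The second KCNG1 probe had the same change of 0.16 with overlapping groups, and it too was lower in mimic cells with that scaling. KCNE4, a small subunit that restrains some Kv pores, had a change of -0.18 ± 0.05 without overlap. KCNAB3, a cytoplasmic beta subunit, had a change of 0.13 ± 0.04, which was -0.06 with spike-in scaling.

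Beta subunits of the BK channel divided by sign. KCNMB4 had values of -0.48 and -0.40 in mimic cells and -0.19 and -0.21 in controls, a change of -0.24 ± 0.05 (adjusted p = 0.1003, limma), or -0.13 with normexp background correction. KCNMB3 had changes of 0.21 and 0.19 for its 2 probes, both without overlap, with adjusted p of 0.132 and 0.127 (limma). One KCNMB3 probe, the probe of KCNMB1 and that of KCNN3 have genome coordinates that span more than their 60 bases, so each crosses an intron. KCNMB2, the beta subunit with a fast inactivating tail, had values of 3.44 and 3.45 in mimic cells and 3.40 and 3.40 in controls at chr3:178561870-178561929 (hg19, plus strand). Its groups did not overlap, but the change was only 0.05 ± 0.04, and it was -0.14 with scaling to the spike-in controls. KCNMB1, the subunit of smooth muscle, had a change of -0.10 ± 0.13 with overlapping groups.

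KCNU1 (Slo3, known from sperm) was grouped by its symbol alone with the calcium- or sodium-activated pores. Its values were -1.33 and -1.18 in mimic cells and -0.88 and -0.69 in controls. The groups did not overlap, and the change was -0.47 ± 0.10 (adjusted p = 0.107, limma), or -0.22 with normexp background correction. The small-conductance channels opened by calcium, KCNN2 and KCNN3, had changes of -0.02 ± 0.06 and 0.28 ± 0.18. Control array 1 was the lowest for KCNN3, at -2.86, and the other 3 arrays lay between -2.41 and -2.30. KCNN2 values overlapped, and its sign turned with normexp background correction.

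Inward rectifiers and two-pore channels hold the resting potential near that of potassium. KCNJ8 (Kir6.1, a pore of channels gated by ATP) had a change of -0.005 ± 0.05, KCNJ2 (Kir2.1) one of -0.19 ± 0.16, and the other KCNJ15 probe one of 0.23 ± 0.18. Groups overlapped for all of these. The KCNJ15 value lay in mimic array 2, at -1.61 against -2.10 to -2.07 on the other 3 arrays, and without it the change was -0.007. The KCNJ2 change was -0.006 without control array 1. KCNK12 (THIK-2) had values of -1.57 and -1.77 in mimic cells and -1.94 and -1.98 in controls, a change of 0.29 ± 0.08 (adjusted p = 0.159, limma) without overlap. KCNK5 (TASK-2, sensitive to pH) had values of 2.44 and 2.45 in mimic cells and 2.42 and 2.39 in controls. That was a change of 0.04 ± 0.04, or -0.15 with scaling to the spike-in controls (chr6:39156821-39156880, hg19, minus strand). KCNK15 (TASK-5) had values of 2.37 and 2.34 in mimic cells and 2.46 and 2.42 in controls, a change of -0.08 ± 0.04. Its 10 spots per array (9 usable on control array 1) had an SD of 0.08 to 0.10, close to the size of the change (chr20:43379593-43379652, hg19, plus strand). KCNK1 (TWIK-1) had a change of -0.11 ± 0.11 with overlap.

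Pores of calcium channels differed little between the groups. CACNA1C codes for the L-type channel of smooth and heart muscle, and its 2 probes had changes of -0.09 and -0.09. They lie next to each other, at chr12:2801192-2801251 and chr12:2801250-2801309 (hg19, plus strand), and share 2 positions. Of the T-type pores, which open near the resting potential, CACNA1G had values of -1.22 and -1.37 in mimic cells and -1.49 and -1.63 in controls, a change of 0.26 ± 0.08 (adjusted p = 0.180, limma) without overlap. CACNA1H had values of 2.22 and 2.25 in mimic cells and 2.20 and 2.22 in controls at chr16:1271711-1271770 (hg19, plus strand). Those groups overlapped, and the change of 0.02 ± 0.04 turned to -0.17 with scaling to the spike-in controls.

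Auxiliary subunits of calcium channels included the only channel probe lower by over 1.5-fold. CACNG7, a gamma subunit that also regulates AMPA receptors, had values of -1.76 and -1.46 in mimic cells and -0.89 and -1.02 in controls at chr19:54446899-54446958 (hg19, plus strand). Both mimic arrays were below both control arrays, by a change of -0.65 ± 0.12 or 1.57-fold (adjusted p = 0.0978, limma), and without mimic array 1 the change was -0.50, under the 1.5-fold limit. With normexp background correction it was -0.32 and was called (adjusted p = 0.0264, limma). The second CACNG7 probe was detected on control array 2 alone and was not tested. CACNG6, another gamma subunit, had values of -2.28 and -2.19 in controls and -2.83 and -2.58 on the mimic arrays, where it was not well above background on either. It was thus tested through the control arrays alone. A bound for mimic cells gave 1.39-fold lower on this scale (adjusted p = 0.116, limma). For each mimic array the bound takes the higher of the probe's own value and the lowest signal of any probe well above background. The control mean is set against these. The probe's own values were the higher ones, so the bound equals the measured difference of -0.47 and is not a lower limit. That difference was -0.17 with normexp background correction and -0.35 without mimic array 1.

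Beta subunits carry calcium pores to the membrane. CACNB2 had values of 2.48 and 2.50 in mimic cells and 2.38 and 2.41 in controls at chr10:18829909-18829968 (hg19, plus strand). That was a change of 0.09 ± 0.04 without overlap, which turned negative with scaling to the spike-in controls, and 0.20 ± 0.11 for its other probe. CACNB3 had values of 2.32 and 2.28 in mimic cells and 2.32 and 2.22 in controls at chr12:49222321-49222380 (hg19, plus strand), with a change of 0.03 ± 0.06, or -0.16 with that scaling. CACNA2D2, an alpha2delta subunit of the family that binds gabapentin, had a change of -0.09 ± 0.20 with overlap.

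Of the sodium channel genes tested, SCN4B had values of 0.99 and 1.05 in mimic cells and 1.35 and 1.24 in controls at chr11:118004297-118004356 (hg19, minus strand). The groups did not overlap, and the change was -0.28 ± 0.06 (adjusted p = 0.109, limma). SCN7A had changes of 0.01 ± 0.05 and 0.31 ± 0.13 for its 2 probes. The first of these, with 10 spots per array, was -0.17 with scaling to the spike-in controls, and its groups overlapped. KCNRG, a regulator of Kv assembly, had a change of 0.35 ± 0.31, with mimic array 2 at -1.42 and the other 3 arrays between -2.24 and -2.11.

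**Figure D4:**
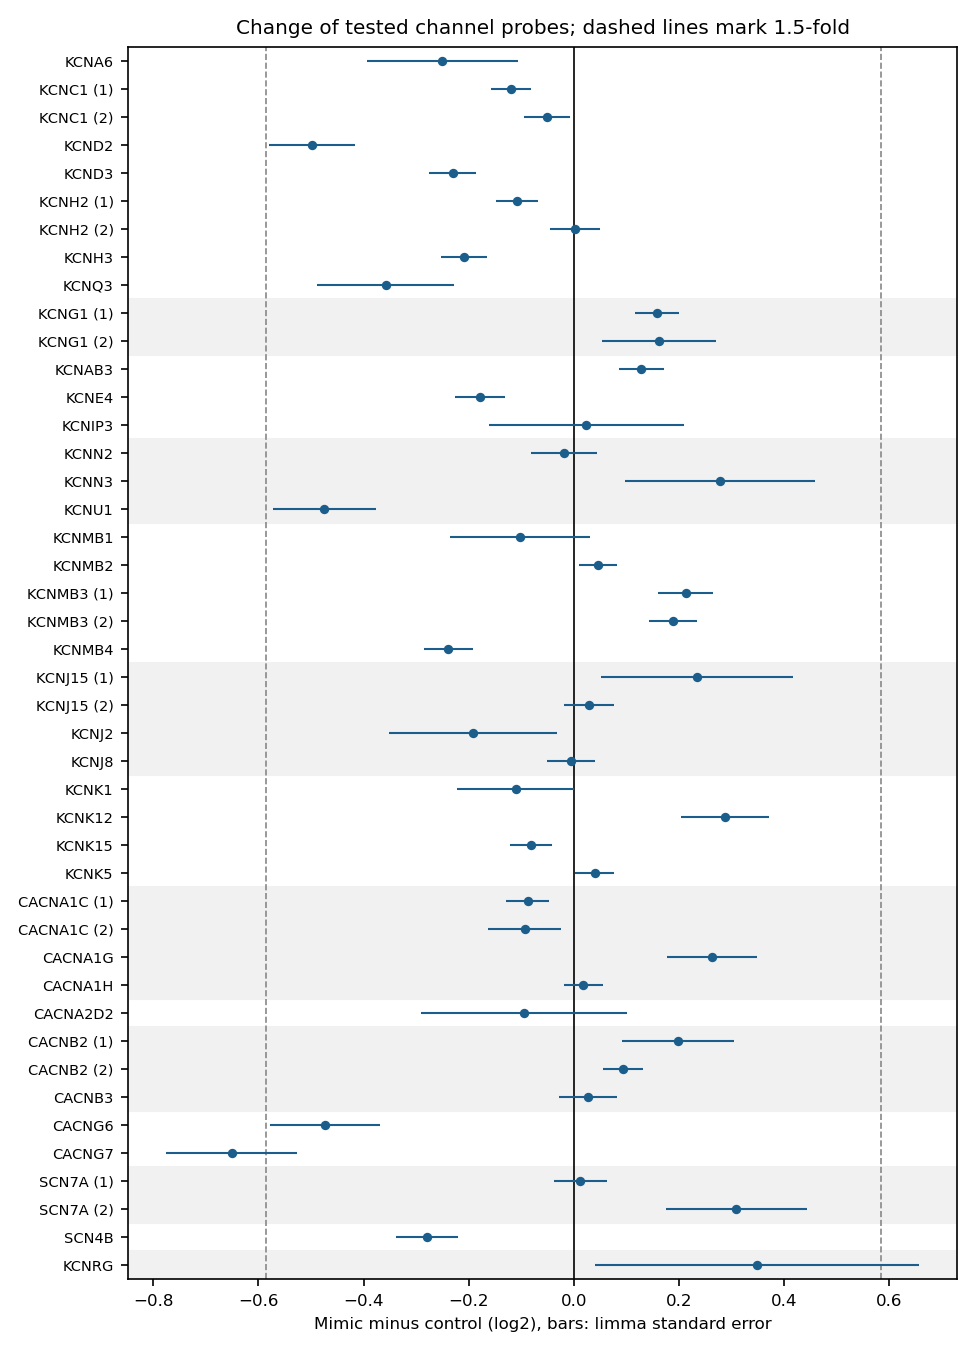
Change of each tested channel probe (y axis) between mimic and control cells (x axis, log2), with bars for the limma standard error and dashed lines at 1.5-fold. The KCNT1 probe (6.33 ± 4.23) and 3 Kv pore probes are not shown, and shading alternates by role. CACNG7 at -0.65 is the only point past a dashed line, and no probe had an adjusted p under 0.05.

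Partners of these channels and other ion transport genes were taken as a separate list of 61. These were HCN, ANO, STIM and KCTD genes, calmodulins, sodium pumps, scaffolds and others, and 37 of them were tested with 46 probes. Their median change was 0.006, with 22 of 46 probes lower, and 1 probe was called lower and 2 higher. Over all tested probes, 53.8% were lower, 1.15% were called lower and 1.47% were called higher. KCTD12, a subunit of GABA-B receptors, fell by 0.44 on the log2 scale (adjusted p = 0.0388, limma), with values of 4.58 and 4.61 against 5.04 and 5.02 in controls. Its other probe had a change of -0.43 (adjusted p = 0.0583, limma). UNC80, a subunit of the sodium leak channel, rose by 0.62 (adjusted p = 0.0348, limma), from -0.92 and -0.98 in controls to -0.32 and -0.33. The other UNC80 probes were not tested. The best of them was detected on 2 arrays with overlapping groups, and the rest on none. NALCN, the pore gene of the sodium leak channel, and its partner UNC79 had no probe detected on any array. STIM2, a calcium sensor of the endoplasmic reticulum, was called at 1 probe with a change of 0.37 (adjusted p = 0.0426, limma), while its other tested probes had changes of -0.34 and -0.30 (adjusted p = 0.0536 and 0.0869, limma). For STIM2 the direction thus depended on the probe. HCN2, a pacemaker channel, was not called. When 1 array at a time was left out, the change ranged from -0.45 to -0.43 for KCTD12, from 0.60 to 0.65 for UNC80 and from 0.366 to 0.373 for STIM2. Those fits called at most 8 of all tested probes, so they do not bear on the calls. With scaling to the spike-in controls the 3 directions were unchanged.

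Markers of GIST and interstitial cells of Cajal (6 genes, KIT and ANO1 among them) were all detected on the 4 arrays. Their summed level relative to the 75th percentile was 254 and 261 in mimic cells and 303 and 300 in controls, and none of the 6 was called. KIT had the highest level of the 6, with a change of -0.33 ± 0.04 (adjusted p = 0.0512, limma). The changes of all 6 were negative at the probe summed. For ANO1 that probe had -0.07, whereas its other probe had 0.47 (adjusted p = 0.0533, limma). Of 6 neuronal markers, 2 were detected (SNAP25 and RBFOX3) and 4 were on no array. RBFOX3 was called, with a change of -0.35 (adjusted p = 0.0483, limma) that ranged from -0.36 to -0.33 when 1 array was left out. The call was close to the threshold. It was lost with quantile normalization (adjusted p = 0.0528, limma), the 75th percentile of detected probes (0.0529) and robust eBayes (0.0515). The summed level of the neuronal list was 6.26 and 6.18 in mimic cells and 7.88 and 7.80 in controls. Most of that sum was RBFOX3, with log2 values of 2.54 and 2.51 in mimic cells and 2.88 and 2.86 in controls. None of 4 glial markers was detected, no cardiac (4) or skeletal (3) muscle marker was detected on all arrays, and of 5 smooth muscle markers 3 were, with MYH11 and CNN1 on none. The part of these differences in the channel values was not tested.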

How the data were processed

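RNA of GIST-T1 cells was profiled with 1-color Agilent human arrays, 2 per group. The authors deposited spot intensity values from Feature Extraction 10.7.3.1, per the file headers (10.7 per the labels); the processed intensity is background-subtracted and detrended within an array and not normalized between arrays. Mean and local background intensity, flags and probe coordinates (hg19) came from the same deposited files. The deposited series value table (intensity) served as an alternative.

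Spots flagged as outliers were left out and replicate spots averaged on the log2 scale, and the 75th percentile of each array was subtracted. Probes detected on both arrays of a group were compared with limma 3.58.1 (R 4.3.3; lmFit and eBayes, no covariates) with Benjamini-Hochberg adjustment over 20328 probes at 0.05; the study's 1.5-fold limit carried no test. The number of arrays limits the precision. The fit was also run on simulated data, with results not given here.

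Members with a tested probe are named, except some that are counted but not reported here by name. Array values are given for those over 1.5-fold and for the 10 probes of highest signal, and further members with small p were chosen after their values were seen. Members, lists and roles were chosen with earlier results of these data known. Alternatives were other scalings, background corrections, filters, limma settings, the t-test, a replicate block and leaving out each array. No genome was used, and exon or UTR positions were not analysed here.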

Additional observations from a re-analysis of the deposited data

How the results depend on the processing

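The count of 0 channel probes called lower became 2 with normexp background correction (CACNG7 among them; 7.62% of all tested probes called), 7 with an intensity trend in limma (and 2 higher; 15.2% of all), 22 with scaling to the spike-in controls (47.2% of all), and 8 (and 4 higher) with the t-test at an unadjusted p under 0.05. Leaving out each array in turn gave 0 lower and between 0 and 1 higher, the 1 being KCNT1 without mimic array 2; these fits, in which a lone array is assumed to vary like the other group, called at most 8 of all probes and say little about calls. The count lower by over 1.5-fold, 1 in the reported scaling, was 0 with normexp correction, 4 with spike-in scaling, 18 of 192 without a filter (and 14 higher), 9 of 64 with detection on at least 1 array (and 4 higher), and 0 at a 2-fold limit or when all pairings of arrays had to pass. It ranged from 0 (without mimic array 1) to 2 (without mimic array 2 or control array 1) when an array was left out, and the count higher ranged from 1 to 2 (2 without mimic array 1, KCNRG and KCNT1). Without the KCNT1 probe, an alternative chosen after seeing the data, 0 were higher. The shares of all probes over 1.5-fold under these alternatives, and at the unadjusted t-test threshold, are not given here. Those counts are therefore not set against the whole array. The median change was -0.22 with spike-in scaling (-0.20 over all tested probes) and 0.0463 without a filter (0.0439 over all probes). With detection required on all arrays, the channel median was -0.005 (-0.01 over all probes so detected). The channel median ranged from -0.04 to -0.01 when an array was left out.

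Of the 32 channel probes with a change over 0.1 in either direction, 17 had one over 1.5 times smaller with normexp correction, whose offset of 50 draws low signals together. With spike-in scaling, the changes turned to -0.16 for CACNB3, -0.17 for CACNA1H, -0.14 for KCNMB2, -0.0581 for KCNAB3, -0.18 for the second KCNH2 probe, -0.0286 for KCNG1, -0.17 for SCN7A, -0.16 for KCNJ15 and -0.15 for KCNK5. This scaling rested on 7 detected spike-in probes, which were 0.19 higher in mimic arrays in the reported scaling; which scaling is nearer to the amount of RNA per cell was not tested. Of 765 pairs of a probe and an alternative, 726 kept the side of the threshold without a counted turn of sign, 30 passed the threshold anew and 9 turned. A turned sign counted only where a p was under 0.05. With spike-in scaling 12 signs turned and 9 of them counted, and signs that turned under other alternatives did not count. The filters, limma settings, replicate block and t-test leave the change itself unaltered, so direction could not turn there.

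Deviations of replicates with the same number were nearly uncorrelated across probes (correlation 0.03). This cannot tell whether such replicates were handled together. A fit with a replicate block called 0 channel probes and 0 of all probes, with a median change of -0.03. Slide and scan as a block were not run, since all arrays shared 1 slide and 1 scan.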
